A study of Mus musculus with 6 samples.

Results

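Genes of resting T cells and of lymphoid homing were examined in natural regulatory T cells (nTreg cells) of wild-type mice and of mice with the splicing factor gene Srsf1 deleted in T cells. The 9 genes Dapl1, Satb1, Klf2, Klf3, S1pr1, Lef1, Tcf7, Il7r and Foxo1 were taken by name, and all 9 were found among the 24982 symbols of the count table, which writes them in capitals (DAPL1, SATB1, KLF2, KLF3, S1PR1, LEF1, TCF7, IL7R and FOXO1). The wild-type group is labelled WT. The knockout group, labelled Srsf1-flox/flox dLck.Cre and called KO here, carries floxed Srsf1 alleles and Cre from the distal Lck promoter, which is active in late thymocytes and mature T cells. Both groups were B6.129 mice of 8 to 10 weeks. From each spleen CD4+CD25+CD127lo cells were sorted, and all were stimulated in culture for 72 h with antibodies to CD3 (2 µg/ml) and CD28 (2 µg/ml) and with recombinant interleukin-2 (10 ng/ml). The series states 3 mice of each genotype, and each library is treated as 1 animal. Libraries are called WT1 to WT3 and KO1 to KO3 after the numbers in their titles.

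A resting T cell keeps up a programme of transcription factors that holds it quiescent and lets it circulate through lymph nodes and spleen. Foxo1 drives Klf2 and Il7r, and Klf2 in turn drives S1pr1, the receptor for the lipid by which T cells leave lymphoid organs. Tcf7 (encoding TCF1) and Lef1 are paired factors of the Wnt pathway that mark naive and memory-like T cells, and Satb1 organises chromatin loops in developing and peripheral T cells. Receptor stimulation normally turns much of this programme down through AKT, which moves Foxo1 out of the nucleus. All values here come from stimulated cells, so the resting level of these genes was not measured.

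Among the 9 genes, Dapl1 was the only one whose fall passed the test over all genes, being 9.78-fold lower in KO, where edgeR called 0.017% of all genes tested. Satb1 stood lower in all 3 KO libraries, at a fitted ratio to WT of 0.492. Klf2 and Klf3 stood higher in all 3 KO libraries, Klf2 from a very low WT level. S1pr1, Lef1, Tcf7, Il7r and Foxo1 overlapped between the groups. The genes therefore did not move one way: 5 had a fold change below 0 and 4 above 0, and their median on the log2 scale was -0.12, where all 11772 genes tested had +0.02. Without the library labelled WT3 the median was +0.03, with 5 of 9 above 0, and without KO1 as well +0.14.

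**Figure D1:**
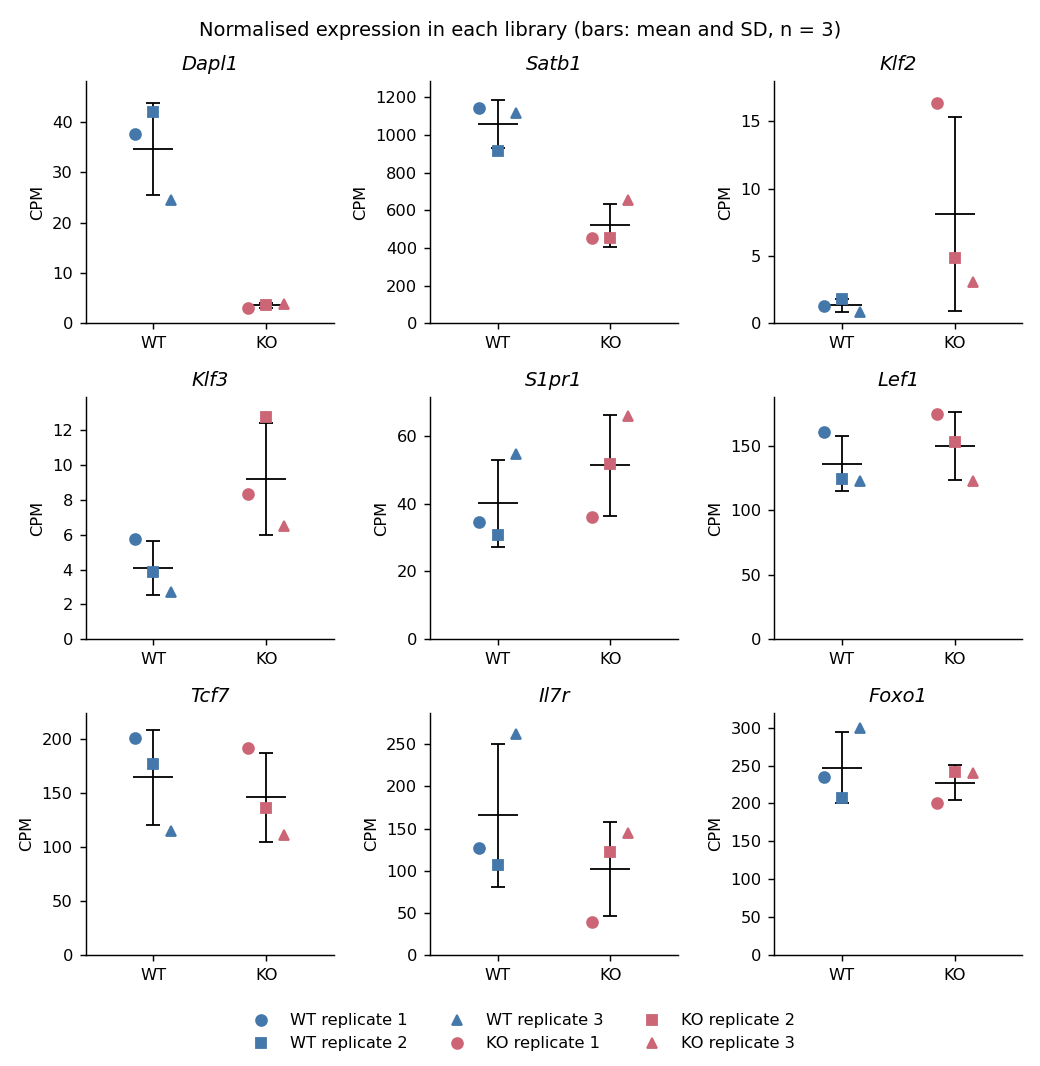
Normalised expression (CPM, vertical axis from 0) of each of the 9 genes in the 3 WT and 3 KO libraries; each symbol is a library and the bars give the mean and SD of the group. The groups are apart for Dapl1, Satb1, Klf2 and Klf3 and overlap for the other genes.

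The libraries differed in depth and in composition. Total counts were 23263741 to 27562046 in WT and 10183626 to 20373649 in KO, so that each KO library was shallower than each WT library. KO1 stood apart, with correlations of log2 CPM across genes of 0.900 to 0.927 with the others, against 0.945 to 0.989 among the other libraries, and a mismatch rate of 0.52% against 0.32% to 0.43%. Srsf1 itself was at 1214, 1230 and 755.5 CPM in WT1 to WT3 and at 438, 812 and 787 CPM in KO1 to KO3 (log2 fold change -0.65, SE 0.32). The count covers exons that the deletion may leave in place, and no genotype was read from it. The groups overlapped for Srsf1, since the library labelled WT3 lay below KO2 and KO3. Its label is followed here, and values that change without it are given.

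Defining genes of Treg cells were present in every library. Titles, sorting protocol and design text name nTreg cells, although the field for the source of each sample calls them effector CD4 T cells. None of 7 Treg markers was at 0. Their sum (Foxp3, Il2ra, Ikzf2, Ctla4, Tnfrsf18, Lrrc32 and Nrp1) was 5094 to 8201 CPM in WT and 4826 to 8384 CPM in KO, and Il2ra alone made up most of it, at 4073 to 6566 CPM in WT and 3300 to 6880 CPM in KO. Foxp3, the factor that defines Treg cells, was itself at 159.6, 121 and 104 CPM in WT1 to WT3 and at 464, 357 and 413 CPM in KO1 to KO3, without overlap (log2 fold change +1.68, SE 0.25; edgeR adjusted p = 0.197, DESeq2 adjusted p = 7.845e-06). Ikzf2 (+0.91, SE 0.32), Lrrc32 (+1.48, SE 0.41) and Nrp1 (+0.91, SE 0.37) also stood higher in KO without overlap, as did 7.48% of all genes tested. Neither tool called Ikzf2, Lrrc32 or Nrp1, while Ctla4 was at -0.79 on the log2 scale. The sum of 3 CD4 T cell markers was 300.1 to 381 CPM in WT and 543 to 568 CPM in KO. Cd4 alone made up most of it, at 238.4 to 315.7 CPM in WT and 425 to 502.7 CPM in KO, while Cd40lg and Zbtb7b overlapped between the groups. The part of the make-up of the sorted cells in the results below was not tested.

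Dapl1 encodes a small protein related to the death-associated protein family and is used as a marker of resting and memory-like T cells. The 250 bases before its annotated start are shown because Dapl1 is the gene that passed the test, beside the same stretch of Satb1, the other gene lower in all KO libraries. Capitals mark the forkhead core GTAAACA (or TGTTTAC on the other strand), the letters bound by Foxo and other forkhead factors. Sequences are from RefSeq on GRCm38.p6, each read 5′ to 3′ on the gene's strand. The counts were made on mm9, so the coordinates serve only to place the sequence.
Dapl1, chr2:59484403-59484652, plus strand: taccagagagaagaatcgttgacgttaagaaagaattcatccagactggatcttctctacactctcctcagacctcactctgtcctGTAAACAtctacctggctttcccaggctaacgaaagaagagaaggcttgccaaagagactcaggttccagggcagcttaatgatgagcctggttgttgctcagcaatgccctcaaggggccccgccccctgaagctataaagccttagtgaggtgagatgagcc
Satb1, chr17:51833291-51833540, minus strand, the outermost of its 5 annotated starts: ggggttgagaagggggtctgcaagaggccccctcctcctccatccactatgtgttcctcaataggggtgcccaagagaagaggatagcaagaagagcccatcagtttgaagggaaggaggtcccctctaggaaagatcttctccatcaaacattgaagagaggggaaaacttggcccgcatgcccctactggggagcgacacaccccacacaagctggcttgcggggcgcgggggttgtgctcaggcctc
In Dapl1 the forkhead core lies 164 to 158 bases before the start. Of all 32851 RefSeq windows of this length, 3.17% hold these letters on either strand.

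The same search was made in the windows of the other genes. RefSeq gave a window for 8 of the 9 genes, all but S1pr1, and 16 windows in all. The forkhead core was found in the Dapl1 window and in none of the other 15. The TCF/LEF core CTTTGA (or TCAAAG) was found in 1 window, that of 1 of the 4 annotated starts of Lef1, against 13.8% of all windows. The KLF core CCACCC (or GGGTGG) was found in 9 windows of 5 genes, namely Satb1, Klf2, Klf3, Lef1 and Tcf7, against 28.1% of all windows. Some windows of neighbouring starts of 1 gene overlap, and none of the 3 motifs contains another. A match describes letters only, and no match says nothing of binding elsewhere.

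Dapl1 was at 37.7, 42.0 and 24.4 CPM in WT1 to WT3, from 834, 1070 and 681 counts. It was at 3.06, 3.70 and 3.91 CPM in KO1 to KO3, from 67, 49 and 39 counts. The groups lie far apart, and the nearest WT library is the one labelled WT3. The mean was 34.7 ± 9.14 CPM in WT and 3.56 ± 0.441 CPM in KO (SD, n = 3 each).

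The log2 fold change of Dapl1 was -3.29 (SE 0.33, 95% interval -4.04 to -2.54), with an edgeR adjusted p of 0.0295. It ranked second by p among 11772 genes. In DESeq2 its adjusted p was 1.955e-17. The size of the fall varied little, from -3.50 to -3.13 with 1 library left out, but edgeR's adjusted p passed the threshold without KO1 (0.0335) and in no other fit with 1 library left out, where it ran from 0.0811 to 0.268. Without KO1 and the library labelled WT3 together, the fold change was -3.37 with an edgeR adjusted p of 0.000624.

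Transcripts of the CD8 coreceptor were also lower in KO. Cd8b1, which encodes the CD8 beta chain and is the other gene edgeR called, had a mean of 85.3 ± 9.16 CPM in WT and of 13.3 ± 0.907 CPM in KO (SD, n = 3 each). Its log2 fold change was -2.68 with an SE of 0.23, at an adjusted p of 0.0166 in edgeR. Cd8a stood at -1.92 (SE 0.295), past the threshold in DESeq2 (adjusted p = 5.954e-06) and not in edgeR (adjusted p = 0.197). Of 6 CD8 T cell markers, these 2 lay lower in every KO library than in every WT library, as did 8.18% of genes tested. Eomes, Klrk1, Crtam and Runx3 overlapped between the groups, and none of the 6 had 0 counts. Eomes (+0.85, SE 0.34) and Runx3 (+0.18, SE 0.30) had a log2 fold change above 0, and Crtam (-0.58, SE 0.31) and Klrk1 (-0.125, SE 0.38) below 0. Summed over the 6 markers the level was 407 to 493 CPM in WT and 266 to 357 CPM in KO. In bulk samples fewer cells of a type and less RNA per cell cannot be told apart, and the part of CD8 T cells in the Dapl1 result was not tested.

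Dapl1 counts per 100 counts of Cd8b1 were 50.1, 45.0 and 28.0 in WT1 to WT3, and 22.6, 26.2 and 31.7 in KO1 to KO3. This ratio, chosen after the values were seen, overlapped between the groups: the library labelled WT3 lay below KO3. Per 100 counts of Cd8a the ratio was 32.0, 23.9 and 15.6 in WT and 6.52, 8.15 and 14.7 in KO. There the groups did not overlap, though the library labelled WT3 and KO3 lay close together.

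By Pearson correlation of log2 CPM over the 6 libraries, the genes most like Dapl1 were Tes (r = 0.992), Ankrd33b (0.991), Fut4 (0.986), Cd8b1 (0.983) and Aldh9a1 (0.982). Within each genotype Cd8b1 did not follow the order of Dapl1: KO3 was the highest KO library for Dapl1 and the lowest for Cd8b1. The r of Cd8b1 thus rests on the gap between the groups. Likeness in shape did not mean likeness in size: Fut4 stood at -1.49 and Tes at -0.21 on the log2 scale. The same was done for the mean standardised level of the 9 genes, which was most like Marveld2 (0.957), Zfp1 (0.884), Slfn5 (0.879), Alg14 (0.876) and Ctbp2 (0.848). These are descriptions over libraries that share depth and normalization with the genes compared.

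Satb1 was at 1145, 913 and 1118 CPM in WT1 to WT3, and at 453, 455.5 and 654 CPM in KO1 to KO3. Every KO library lay below every WT library, with KO3 nearest to the WT range. The log2 fold change was -1.02 (SE 0.25, 95% interval -1.59 to -0.45), and the edgeR adjusted p of 0.371 did not pass. DESeq2 called it with an adjusted p of 0.0329, where DESeq2 called 0.977% of 12490 genes, 0.28% as lower and 0.697% as higher. Of the 9 genes DESeq2 called Dapl1 and Satb1 lower and Klf2 higher. Left-out libraries moved the value between -1.24 and -0.93, and it was -0.87 without KO1 and the library labelled WT3.

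The Krüppel-like factors Klf2 and Klf3 share a zinc finger domain that binds CACCC-type sites, Klf2 as an activator and Klf3 mainly as a repressor. Klf2 was at 1.31, 1.84 and 0.825 CPM in WT1 to WT3, from 29, 47 and 23 counts. In KO1 to KO3 it was at 16.4, 4.83 and 3.11 CPM, from 358, 64 and 31 counts. All 3 KO libraries exceed all WT libraries, and KO1, the library that stood apart, is far above the other KO libraries.

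The log2 fold change of Klf2 was +2.62 (SE 0.67, 95% interval 1.10 to 4.14), with an edgeR adjusted p of 0.408 and a DESeq2 adjusted p of 0.00621. Without KO1 it was +1.58 in edgeR, and without the library labelled WT3 as well it was +1.36. Both fits kept it above 0, with edgeR adjusted p of 0.340 and 0.183. The size of the Klf2 difference thus depended on KO1.

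Klf3 was at 5.74, 3.84 and 2.69 CPM in WT1 to WT3, and at 8.32, 12.75 and 6.52 CPM in KO1 to KO3. The groups did not overlap, but WT1 and KO3 lay close together. The log2 fold change was +1.17 (SE 0.41, 95% interval 0.23 to 2.11; edgeR adjusted p = 0.613, DESeq2 adjusted p = 0.249). In contrast to Klf2, its highest KO library was KO2, and without KO1 the value was +1.24.

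Groups that did not overlap were therefore found for 2 genes with KO below WT and 2 with KO above WT. Over all genes tested, 8.18% lay wholly below and 7.48% wholly above. At an unadjusted p under 0.05 in edgeR these were the same 4 of the 9 genes, against 7.51% of all genes: 2 lower, against 2.76%, and 2 higher, against 4.75%. The 9 genes had been chosen with earlier results of these data known, so their share is a description.

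**Figure D2:**
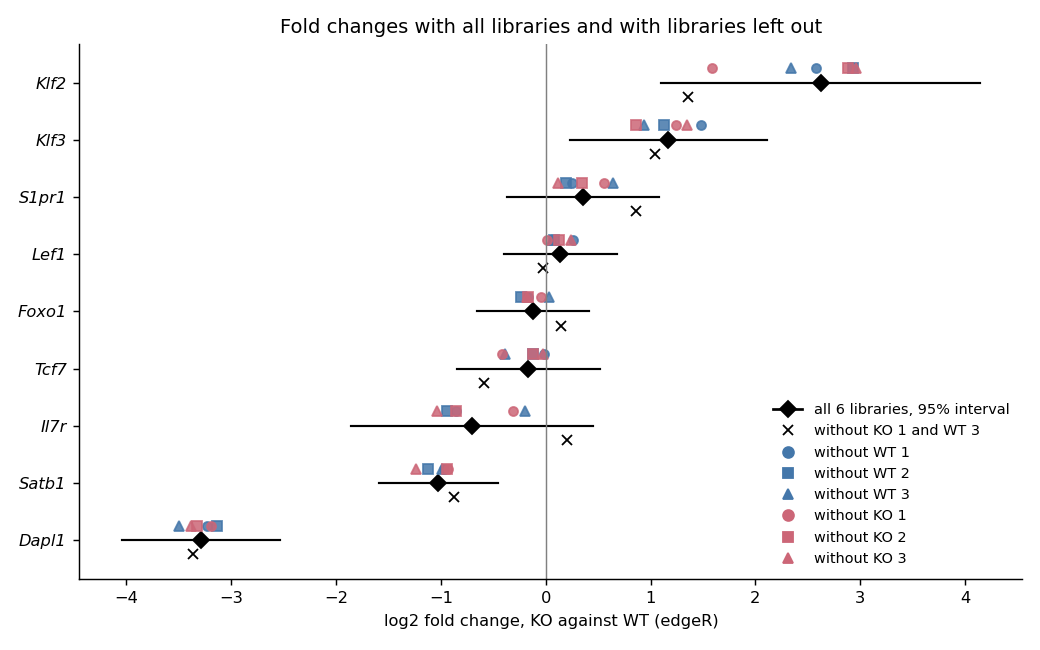
Log2 fold change in KO against WT (horizontal axis, edgeR) of each gene; diamonds and lines give the value and 95% interval with all 6 libraries, coloured symbols the value without 1 library, crosses the value without KO1 and the library labelled WT3. Dapl1 stays between -3.50 and -3.13 with 1 library left out, while Klf2 is at 1.58 without KO1 and Il7r crosses 0 without both libraries.

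S1pr1, the receptor for sphingosine 1-phosphate through which T cells exit lymphoid organs, overlapped between the groups. It was at 34.75, 30.8 and 54.85 CPM in WT1 to WT3 and at 36.2, 51.8 and 66.0 CPM in KO1 to KO3. The library labelled WT3 was higher than KO1 and KO2. The log2 fold change was +0.35 (SE 0.32, 95% interval -0.37 to 1.08; edgeR adjusted p = 0.775). Without KO1 and the library labelled WT3 it was +0.86 (SE 0.18), still not past the threshold (edgeR adjusted p = 0.0714).

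Il7r encodes CD127, the alpha chain of the interleukin-7 receptor, and its protein was used to gate both groups as CD127lo, so its level is not independent of the sort. It was at 127, 107 and 263 CPM in WT1 to WT3, and at 39.1, 122 and 144 CPM in KO1 to KO3. The highest value was in the library labelled WT3 and the lowest in KO1. The log2 fold change was -0.70 (SE 0.51, 95% interval -1.85 to 0.45; edgeR adjusted p = 0.753). It was -0.20 without the library labelled WT3, -0.32 without KO1 and +0.21 without both, so its direction changed with these libraries.

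Foxo1, the forkhead factor upstream of Klf2 and Il7r, showed no difference beyond the spread of the libraries. It was at 235, 208 and 299.7 CPM in WT1 to WT3 and at 201, 241 and 239.8 CPM in KO1 to KO3 (log2 fold change -0.12, SE 0.23, 95% interval -0.66 to 0.41; edgeR adjusted p = 0.884). The library labelled WT3 was again the highest, and without it the value was +0.03. The interval includes falls of up to 0.66 and rises of up to 0.41 on the log2 scale.

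Tcf7 was at 201, 177 and 115 CPM in WT1 to WT3 and at 191, 136 and 111 CPM in KO1 to KO3 (log2 fold change -0.17, SE 0.30, 95% interval -0.85 to 0.51; edgeR adjusted p = 0.876). Lef1 was at 161, 125 and 123 CPM in WT1 to WT3 and at 175, 153 and 123 CPM in KO1 to KO3 (log2 fold change +0.14, SE 0.24, 95% interval -0.40 to 0.68; edgeR adjusted p = 0.870). For both factors the groups overlapped. Without KO1 and the library labelled WT3, Tcf7 stood at -0.59 (edgeR adjusted p = 0.125) and Lef1 at -0.03.

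Tcf7 and S1pr1 ran in nearly opposite order across the libraries of both genotypes. Of the 36 pairs among the 9 genes this was the most negative correlation of log2 CPM (r = -0.938 over 6 libraries), with the library labelled WT3 and KO3 high in S1pr1 and low in Tcf7. Il7r and Foxo1 ran in parallel (r = 0.878), both highest in the library labelled WT3 and lowest in KO1. These pairs were picked after all 36 were seen.

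Levels were compared between genes on the FPKM scale, which is per transcript length. In WT the order of the means was Satb1 (128 ± 14.6, SD, n = 3), Dapl1 (67.5 ± 17.0), Tcf7 (48.2 ± 11.4), Lef1 (44.8 ± 5.20), Il7r (39.6 ± 21.6), Foxo1 (34.1 ± 7.60), S1pr1 (10.5 ± 3.77), Klf3 (1.34 ± 0.463) and Klf2 (0.599 ± 0.223). The neighbours from Dapl1 down to Foxo1 overlapped in range, while Satb1 lay above all and S1pr1, Klf3 and Klf2 followed without overlap. Dapl1 was thus among the abundant transcripts of WT cells, above 90.4% of the genes tested.

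In KO the order was Satb1 (64.0 ± 11.2 FPKM), Lef1 (50.8 ± 11.9), Tcf7 (44.6 ± 15.3), Foxo1 (31.9 ± 0.564), Il7r (23.9 ± 11.8), S1pr1 (13.5 ± 2.91), Dapl1 (7.17 ± 0.353), Klf2 (4.02 ± 3.95) and Klf3 (3.21 ± 1.054). Dapl1 moved from the second to the seventh place and lay above 45.4% of the genes tested. Klf2 lay above Klf3 in the KO mean, but only KO1 held more Klf2 than Klf3 on this scale (8.55 against 3.19 FPKM). Neighbours from Satb1 to S1pr1 overlapped in range, as did Dapl1 with Klf2 and Klf2 with Klf3, and S1pr1 lay above Dapl1 without overlap.

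**Figure D3:**
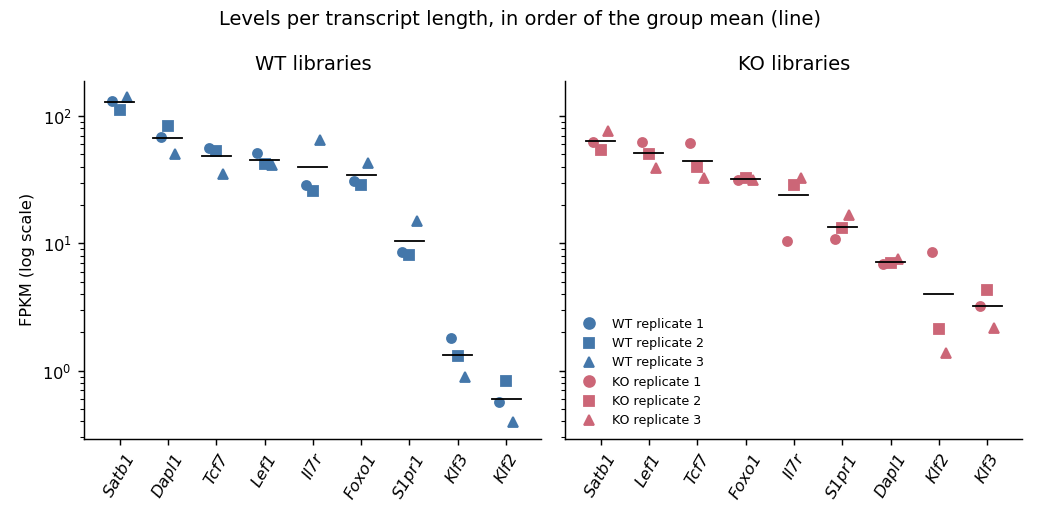
FPKM (log axis) of the 9 genes in the WT libraries (left) and the KO libraries (right), ordered by the group mean, which the line marks; each symbol is a library. Dapl1 is second in WT at a mean of 67.5 FPKM and seventh in KO at 7.17 FPKM.

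Other genes of lymphoid homing and egress were taken as a list of 14, of which 12 were tested. As background for this list and those below, 6074 of all 11772 genes tested were above 0. In edgeR 7.51% of them had an unadjusted p under 0.05, 2.76% lower and 4.75% higher. DESeq2 called 0.977% of 12490 genes. All 12 homing genes had a fold change above 0 (median +0.55), yet edgeR called 0 of them, with 1 at an unadjusted p under 0.05, and DESeq2 called 1. That gene was Gpr183, the receptor for oxysterols that positions cells in lymphoid tissue, at 16.7, 19.1 and 9.72 CPM in WT1 to WT3 and 47.8, 40.3 and 32.3 CPM in KO1 to KO3. Its groups lay clearly apart (log2 fold change +1.40, SE 0.32; edgeR adjusted p = 0.350, DESeq2 adjusted p = 0.0138).

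The count above 0 moved with 1 library. Without KO1, 8 of 12 genes were above 0 (median +0.15), and without the library labelled WT3 as well, 9 of 12 (median +0.17). Without KO3, where 13 genes were tested, all 13 were above 0 (median +0.85). Ccr7, the chemokine receptor for entry into lymph nodes, was high in the same library: it stood at 261 CPM in KO1, against 117 and 91.1 CPM in KO2 and KO3 and 71.9 to 135 CPM in WT. S1pr4 was likewise at 50.6 CPM in KO1 and at 9.40 to 16.7 CPM in every other library. Ccr7 and S1pr4 were named after their values were seen.

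Genes linked to Foxo1 were divided. Of 16 tested members of the Foxo family and its targets, 8 were above 0 and 8 below (median -0.00), and 0 were called by edgeR or DESeq2, with 2 at an unadjusted p under 0.05, both lower. These were the insulin receptor gene Insr (-0.73, SE 0.28) and Tsc22d3 (-0.75, SE 0.31), which encodes the glucocorticoid-induced protein GILZ. Bcl6, a repressor that Foxo factors can induce, stood at +0.82 (SE 0.40). The split moved with single libraries: 10 of 16 were above 0 without the library labelled WT3 (median +0.25) and 6 of 16 without WT2 (median -0.15).

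Among 10 other tested Klf genes, 4 were above 0 (median -0.26), and neither edgeR nor DESeq2 called any, with 1 at an unadjusted p under 0.05 in edgeR. That gene was Klf8, at -1.001 (SE 0.37), followed by Klf11 (-0.86, SE 0.45) and Klf7 (-0.81, SE 0.46). Klf10 was at +0.41 (SE 0.24), with KO above WT in every library. The median ran from -0.43 without KO3 to -0.12 without KO1 or KO2.

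Of 16 tested partners of TCF1 and LEF1, 13 were above 0 (median +0.37), with 0 called by edgeR or DESeq2 and 1 at an unadjusted p under 0.05 in edgeR. This was Axin2, a direct target that feeds back on Wnt signalling, at +0.75 (SE 0.33), next to the coactivator gene Bcl9l at +0.97 (SE 0.43). Bcl9l was highest in KO1, at 48.1 CPM, against 17.21 and 17.25 CPM in KO2 and KO3 and 13.3 to 15.5 CPM in WT. Without KO1, 9 of the 16 were above 0 (median +0.05). In interleukin-7 receptor signalling 8 of 14 were above 0 (median +0.05), again with 0 called by either tool and 2 at an unadjusted p under 0.05, both lower. Those were Gfi1 (-0.76, SE 0.30), a repressor of Il7r, and the survival gene Bcl2 (-1.005, SE 0.41). The groups did not overlap for Gfi1 but did for Bcl2. Bcl2 was at 182.5 and 151.5 CPM in WT1 and WT2, 394 CPM in the library labelled WT3, and 85.9 to 167.5 CPM in KO. Without KO1, 4 of the 14 were above 0 (median -0.18), and without the library labelled WT3 9 of 14 (median +0.16).

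Of 29 other tested genes of resting T cells, 16 were above 0 (median +0.07), with 0 called by edgeR or DESeq2 and 4 at an unadjusted p under 0.05 in edgeR. Evl, an actin regulator, stood at -1.12 (SE 0.32), while Trib2 (+1.08, SE 0.30), the lymphotoxin gene Ltb (+1.61, SE 0.57) and Rgs10 (+0.60, SE 0.22) stood above 0. Ltb was highest in KO1, at 195.8 CPM, against 51.6 and 40.6 CPM in KO2 and KO3 and 23.3 to 38.6 CPM in WT. The count was 13 of 29 without WT1 (median -0.08) and 21 of 29 without the library labelled WT3 (median +0.14). Of 14 genes of activated T cells, 5 were above 0 (median -0.17), with 0 called by either tool and 1, the granzyme gene Gzmb (-1.20, SE 0.34), at an unadjusted p under 0.05. Mki67, a marker of cycling cells, was at +0.52 (SE 0.39). Without the library labelled WT3, 8 of these 14 were above 0 (median +0.02).

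**Figure D4:**
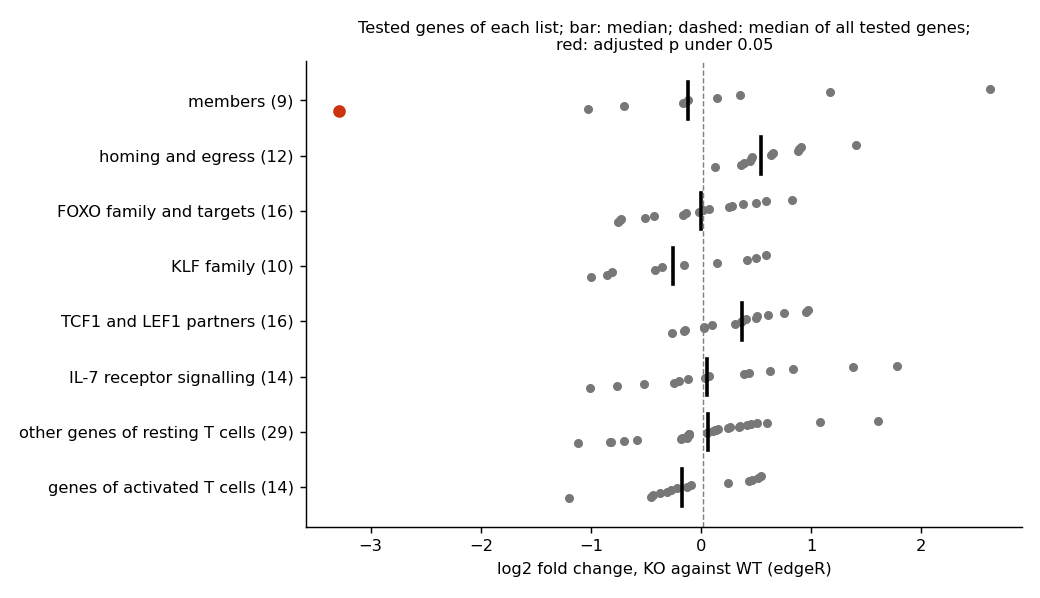
Log2 fold change in KO against WT (horizontal axis, edgeR) of every tested gene in 8 lists, with the number tested in brackets; thick bars mark list medians, the dashed line the median of all tested genes, and red a gene past the threshold. Dapl1 at -3.29 is the only gene marked, and the list medians lie between -0.26 and 0.55.

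Markers of other cell types were low but not equal between groups. Of the B cell markers, Cd79a, Ms4a1 and Pax5 were under 10 counts in every library. Cd79b reached 115 counts in 1 library and Ebf1 479, and both overlapped between the groups. Blk, at most at 42 counts, stood higher in KO without overlap (+2.53, SE 0.74; edgeR adjusted p = 0.485). NK cell markers (7 genes) were 3.22 to 8.68 CPM in WT and 6.54 to 19.4 CPM in KO, with Klra8 at 0. All 4 tested had a fold change above 0. Klrb1b (+2.32, SE 0.65) and Klrb1c (+1.94, SE 0.695) stood higher in KO without overlap, as did 7.48% of all genes tested. Neither tool called them, and they reached at most 60 and 25 counts. Klre1 (+0.74, SE 0.45) and Klra7 (+1.11, SE 0.71) overlapped between the groups. Ncr1, not tested and at most at 27 counts, also lay higher in every KO library. Myeloid markers (9 genes) were 2.12 to 6.35 CPM in WT and 10.1 to 15.6 CPM in KO, with Csf1r and Lyz2 at 0 and 6 of the 9 under 10 counts in every library. Cd68 (5.96 CPM) and Fcer1g (6.27 CPM) made up most of the KO sum by their means. Fcer1g stood at +2.59 on the log2 scale (SE 0.495; edgeR adjusted p = 0.3075, DESeq2 adjusted p = 0.0001011). Cd68 was at +1.15 (SE 0.465) and called by neither tool. The NK sums overlapped between the groups and the myeloid sums did not, being higher in KO, where Klf2 and Klf3 also stood higher. The part of these markers in those values was not tested.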

How the data were processed

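Gene expression was read from 6 libraries, 3 WT and 3 KO, grouped by their titles. Libraries were stranded mRNA with 75-bp single ends and, by the series' design text, went through the VIPER pipeline. The aligner was STAR 2.4.2a (per the file headers) and the build mm9 (per the submitters' processing notes). How reads were assigned to genes, with or without strand, and from which annotation is not given in the sources used here. Overlapping genes may therefore share reads. The authors deposited whole-number counts for 24982 symbols, not normalized, and a table of FPKM values (normalized for length and depth) for 24917 symbols. In 26 entries a date stands for a symbol (0.271% of counts). They were kept in library sizes and not named.

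Genes were kept by filterByExpr (minimum count 10), scaled by TMM and compared by the quasi-likelihood F test of edgeR 4.0.16 (R 4.3.3). P-values were adjusted by Benjamini-Hochberg over the 11772 genes kept, with a threshold of 0.05. All 9 genes passed the filter. CPM are TMM-normalized, and SE were taken from the F statistic. DESeq2 1.42.0 and limma 3.58.1 served as alternatives. A count of 3 corresponds to 0.109 to 0.295 CPM before normalization. The tests were tried on simulated counts first.

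The genes and lists were chosen with earlier results of these data known. Named genes were the 9 genes, Srsf1, up to 4 genes of each list with the smallest p, and the 5 most like Dapl1 and most like the mean of the 9 (at least 2 CPM, no predicted genes). Some genes of the lists are not reported here. Ccr7, S1pr4, the marker genes beyond that rule and the Dapl1 to CD8 ratios were picked after their values were seen. The sex used as a covariate was read from Xist and Y-linked genes: WT2 and KO2 read as male and the other libraries as female. Fits without WT2 or without KO2 therefore left that genotype with female libraries only. Alternatives were other scalings, filters, tools and pseudocounts, thinned counts, a replicate block and libraries left out.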

Additional observations from a re-analysis of the deposited data

How the results depend on the processing

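Of the 9 genes, edgeR called 1, and over all genes 2. Dapl1 was at or below -3.04 on the log2 scale under all 20 alternatives tried, and in 10 of them it did not pass the threshold. DESeq2 called 122 genes and 3 of the 9 (Dapl1, Satb1, Klf2). Other scalings, a minimum of 1 CPM in 3 libraries and the filtered FPKM tables kept 1 of the 9 called. None of the 9 was called with limma voom (1 gene in all), counts thinned to equal depth (1 gene), sex as a covariate (0 genes, 695 at an unadjusted p under 0.05 in edgeR) or limma on unfiltered log2(FPKM + 1) (0 genes, 1133 at an unadjusted p under 0.05). Without a filter 6 genes were called. Without KO1 and the library labelled WT3 together 80 were called, 1 of the 9 among them. With 1 library left out the counts ran from 0 to 3 genes and from 0 to 1 of the 9, with 509 to 1272 genes at an unadjusted p under 0.05. Without both libraries 3 genes reversed, Lef1 to -0.029, Il7r to +0.21 and Foxo1 to +0.14. With 1 library left out Foxo1 ran from -0.238 to +0.032, the latter without the library labelled WT3. The cause was not tested. Homing genes above 0 ranged from 8 of 12 to 13 of 13 tested with 1 library left out, an alternative added after the data were seen.

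The replicate numbers were also fitted as a block. With the replicate block 1 gene was called in all and 0 of the 9, with Dapl1 at -3.26 (edgeR adjusted p = 0.0801). Same-numbered libraries correlated in their deviations from the group means at -0.361, 0.145 and 0.138, and differently numbered ones at -0.375 to 0.324. Sex, read from Xist and Y-linked genes, matched between same-numbered libraries. With 3 libraries in each group the deviations are not independent of each other. These values therefore cannot decide whether the numbers pair the samples.

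Every KO library is shallower than every WT library, and with counts thinned to equal depth Klf2 was at +2.485.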
